A study of Mus musculus with 24 samples.

Results

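The comparison described here is the effect of COSMC targeting on gene expression in MC38, a colorectal cancer cell line of the mouse, averaged over CMAS status. It was made on 12 of the 24 samples of the series, chosen by their labels. The 6 samples of the lines labelled MC38-COSMC KO and MC38-DKO, whose target genes include COSMC, were set against the 6 samples of MC38-MOCK#1 and MC38-CMAS KO, with CMAS status as a covariate. Of 52636 genes in the table, the 21396 with at most 8 zeros among the 12 samples were tested.

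All 4 lines derive from MC38, of C57BL/6 origin, carry a CRISPR-Cas9 construct and were grown with puromycin. MC38-MOCK#1 received an empty construct. CMAS was targeted in MC38-CMAS KO, COSMC in MC38-COSMC KO (the MC38-Tnhigh cells of the study), and both genes in MC38-DKO. Each line is represented by 3 samples, from passages 4, 5 and 6. MC38-COSMC KO is a bulk population that the study sorted for strong binding of the GalNAc-specific lectin HPA, and how MC38-CMAS KO and MC38-DKO were selected is not given in the sources used here. Every combination of targets was made as a single line. P-values of contrasts between line means therefore measure the spread between harvests of a line. Those of the averaged comparison also take in how far the effect of COSMC targeting differed with and without CMAS targeting. The target of a line cannot be told apart from anything else in which these populations differ.

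COSMC, encoded by C1galt1c1, is the chaperone that the T-synthase (C1galt1) needs to fold. The T-synthase adds galactose to the Tn antigen, the GalNAc that starts mucin-type O-glycans on serine and threonine, so cells without COSMC carry truncated O-glycans. Cmas makes CMP-sialic acid, the donor for all sialyltransferases, and cells without it cannot cap glycans with sialic acid.

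Expression is given as normalized counts, the reads of a gene after the authors' scaling of each library and rounding to whole numbers. Their totals lay between 11048959 and 11613273 in the 12 libraries, from an estimated 7136187 to 14370810 reads, an approximate figure read from the spacing of the rounded values. Of 11 colon epithelium markers, 1 reached a mean of 10 normalized counts over the 12 samples (Krt20, 0 to 44). Epcam stayed at or under 1, Cdh1 at or under 2, and Cdx2 was at 0 in all 12. Leukocyte markers summed to 6 to 25 normalized counts per sample, with Cd3e, Cd3g and Adgre1 at 0, and endothelial markers to 0 to 7. Fibroblast markers summed to 760 to 1057 in MC38-MOCK#1, 1321 to 1603 in MC38-CMAS KO, 1114 to 1365 in MC38-COSMC KO and 739 to 1007 in MC38-DKO. Of these 9 markers, 6 reached a mean of 10, and Pdgfra alone had 481 to 716 in the 12 samples. Thy1 was at 0 in all 12, Lum at or under 2 and Dcn at or under 6.

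C1galt1c1 (ENSMUSG00000048970, chromosome X of GRCm38, 38630785 to 38635087, minus strand) had 242, 220 and 251 normalized counts in MC38-MOCK#1 and 215, 181 and 152 in MC38-CMAS KO. In the COSMC-targeted lines the values were 145, 163 and 124 in MC38-COSMC KO and 206, 166 and 175 in MC38-DKO. The samples of MC38-COSMC KO lay below all those of MC38-MOCK#1, whereas those of MC38-DKO fell within the range of MC38-CMAS KO. In a bulk population, fewer cells with an RNA and less RNA per cell cannot be told apart.

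Averaged over CMAS status, C1galt1c1 had a log2 fold change of -0.36 (standard error 0.148, limma adjusted p = 0.794). Without CMAS targeting it was -0.73 (standard error 0.146, limma adjusted p = 0.0042) and with CMAS targeting 0.01 (standard error 0.146, limma adjusted p = 1). The difference between these contrasts was 0.73 (limma adjusted p = 0.0201). The RNA of the targeted gene was therefore lower in MC38-COSMC KO than in MC38-MOCK#1, but overlapped with that of MC38-CMAS KO. It did not separate MC38-DKO from MC38-CMAS KO. RNA does not show whether MC38-COSMC KO or MC38-DKO lacks the protein. For MC38-COSMC KO the study reported lost T-synthase activity, C1galt1c1 mutations and stronger staining for the Tn antigen. Every direction given below for MC38-DKO rests on its label.

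Cmas had 416, 384 and 386 normalized counts in MC38-MOCK#1 and 350, 356 and 322 in MC38-COSMC KO, against 117, 93 and 126 in MC38-CMAS KO and 142, 135 and 122 in MC38-DKO. Its RNA thus followed the labels in all 12 samples, with a log2 fold change of -1.59 for CMAS targeting in the same fit (standard error 0.11, limma adjusted p = 3.37e-05). For COSMC targeting the value was 0.02 (limma adjusted p = 0.995), with a sign that turned under some settings. C1galt1, the T-synthase itself, lay between 277 and 394 normalized counts in the 12 samples and had an averaged log2 fold change of 0.00 (standard error 0.0789, limma adjusted p = 1).

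**Figure D1:**
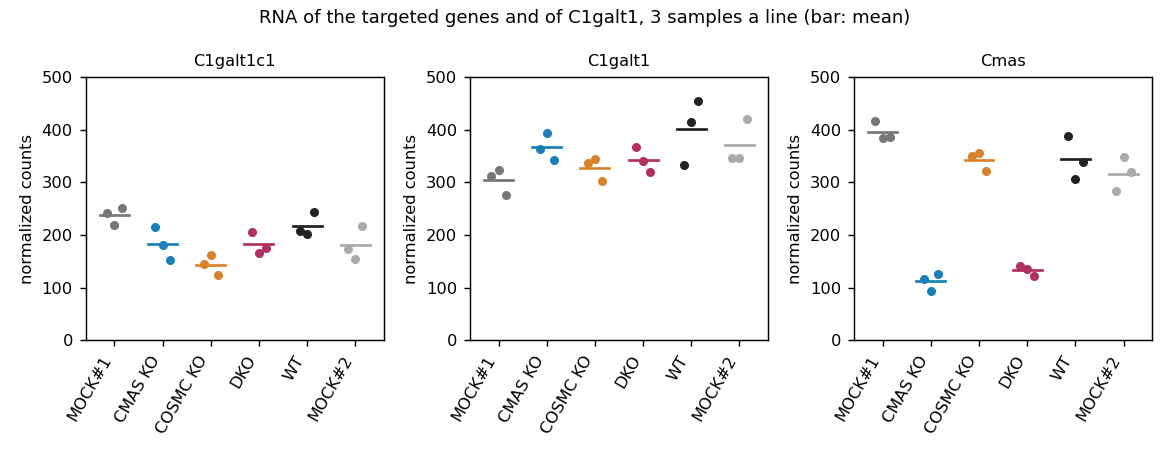
Normalized counts (vertical axis, linear from 0) of C1galt1c1, C1galt1 and Cmas in the 4 lines compared and in MC38-WT and MC38-MOCK#2, which did not enter the fit. Points are samples and bars are means of 3. Cmas separates both CMAS-targeted lines from the rest, whereas C1galt1c1 is at 183 ± 31.5 in MC38-CMAS KO and at 182 ± 21 in MC38-DKO (SD, n = 3 each).

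In the averaged comparison 12 of 21396 genes (0.0561%) passed the threshold of an adjusted p below 0.05, 4 higher (0.0187%) and 8 lower (0.0374%) in the COSMC-targeted lines. At an unadjusted p below 0.05 there were 1250 genes (5.84%). The additive model takes the effect of COSMC targeting as equal with and without CMAS targeting, and leaves any inequality in its residual spread. When the 4 line means were fitted and the contrasts of both backgrounds averaged, 153 genes (0.715%) passed, 66 higher (0.308%) and 87 lower (0.407%), and all 12 genes were among them. Of these 153 genes, 118 also passed the test for a difference between the backgrounds and 84 had opposite signs in them, so most of the added calls were averages of unequal effects.

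Among the genes that rose, Psd4, an exchange factor for the small GTPase ARF6, had 2, 1 and 1 normalized counts in MC38-MOCK#1 and 7, 7 and 7 in MC38-CMAS KO. It had 14, 23 and 15 in MC38-COSMC KO and 34, 23 and 30 in MC38-DKO. No targeted sample overlapped with an untargeted sample. The averaged log2 fold change was 2.43 (standard error 0.285, limma adjusted p = 0.0105). MC38-WT, with 35, 40 and 43, lay above the COSMC-targeted lines, and MC38-MOCK#2 had 11, 9 and 16, of which the highest was within the targeted range.

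Ace, the angiotensin-converting enzyme, had 2, 2 and 2 normalized counts in MC38-MOCK#1 and 5, 3 and 3 in MC38-CMAS KO, against 20, 22 and 11 in MC38-COSMC KO and 12, 21 and 22 in MC38-DKO. The groups did not overlap, and the log2 fold change was 2.31 (standard error 0.285, limma adjusted p = 0.0105). MC38-WT, whose COSMC was not targeted, had 29, 33 and 18, at or above most targeted samples, and MC38-MOCK#2 had 4, 6 and 7, near the untargeted samples.

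Trpv2, a calcium-permeable cation channel, showed the highest level of the genes that rose. It had 334, 289 and 318 normalized counts in MC38-MOCK#1 and 738, 609 and 587 in MC38-COSMC KO, and 202, 178 and 193 in MC38-CMAS KO against 276, 276 and 301 in MC38-DKO. Samples were separate within each background, but those of MC38-DKO overlapped with those of MC38-MOCK#1. The averaged log2 fold change was 0.80 (standard error 0.101, limma adjusted p = 0.0105), made up of 1.03 without and 0.57 with CMAS targeting, and these differed (interaction -0.46, limma adjusted p = 0.0365). In MC38-WT and MC38-MOCK#2 its values ran from 178 to 239.

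The fourth gene that rose, the zinc finger gene Zfp92, was near the limit of detection, with 0, 0 and 0 normalized counts in MC38-MOCK#1, 1, 0 and 0 in MC38-CMAS KO, 1, 2 and 3 in MC38-COSMC KO and 5, 5 and 5 in MC38-DKO (limma adjusted p = 0.0434). No fold is given, since in the first background both lines were at or under 3 reads.

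Of the 8 genes that fell, Kif26b, an atypical kinesin family member, was the most abundant. It had 683, 886 and 1242 normalized counts in MC38-MOCK#1 and 593, 648 and 602 in MC38-CMAS KO, against 331, 357 and 329 in MC38-COSMC KO and 355, 326 and 345 in MC38-DKO. All 6 targeted samples lay below all 6 others. The log2 fold change was -1.13 (standard error 0.137, limma adjusted p = 0.0105). MC38-WT (591, 748 and 554) and MC38-MOCK#2 (701, 687 and 822) were also above all targeted samples.

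Lpar1, a receptor for lysophosphatidic acid, had 57, 65 and 105 normalized counts in MC38-MOCK#1 against 33, 33 and 22 in MC38-COSMC KO, and 173, 115 and 137 in MC38-CMAS KO against 60, 41 and 46 in MC38-DKO. The samples were separate within each background but overlapped between them. Its log2 fold change was nearly the same in both, -1.31 and -1.51, and -1.41 on average (standard error 0.192, limma adjusted p = 0.0202). MC38-WT had 74, 147 and 100 and MC38-MOCK#2 54, 61 and 92.

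Cadm4, a cell adhesion molecule of the immunoglobulin superfamily, had 41, 39 and 43 normalized counts in MC38-MOCK#1 and 51, 50 and 43 in MC38-CMAS KO, against 14, 13 and 13 in MC38-COSMC KO and 29, 17 and 28 in MC38-DKO. The log2 fold change was -1.26 (standard error 0.196, limma adjusted p = 0.0395). It was lowest, at 1, 1 and 1, in the control MC38-MOCK#2, and had 8, 22 and 7 in MC38-WT.

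Efcab6, an EF-hand protein, had 504, 544 and 541 normalized counts in MC38-MOCK#1 and 611, 564 and 566 in MC38-CMAS KO, 161, 174 and 147 in MC38-COSMC KO and 331, 368 and 448 in MC38-DKO. Its log2 fold change was -1.72 without and -0.61 with CMAS targeting (interaction 1.11, limma adjusted p = 0.000144), and the average was -1.16 (limma adjusted p = 0.0279). MC38-WT had 449, 455 and 502 and MC38-MOCK#2 268, 292 and 213, the latter below MC38-DKO. Bahcc1, which encodes a chromatin protein with a BAH domain, had 567 to 698 normalized counts in the untargeted and 336 to 491 in the targeted lines, with log2 fold changes of -0.60 and -0.56 and an average of -0.58 (limma adjusted p = 0.0243). It had 493, 723 and 562 in MC38-WT and 420, 377 and 496 in MC38-MOCK#2, the latter mostly within the targeted range.

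Also lower were a zinc finger gene and a non-coding transcript. Zfp985, which lies in a cluster of near-identical zinc finger genes on chromosome 4 whose reads may be divided between copies, had an averaged log2 fold change of -0.87 (standard error 0.131, limma adjusted p = 0.033). MC38-WT (206, 202 and 293) and MC38-MOCK#2 (228, 184 and 207) lay within its untargeted range. 4930453L07Rik had 3, 3 and 6 normalized counts in MC38-MOCK#1 and 9, 4 and 3 in MC38-CMAS KO, against 1, 0 and 0 in MC38-COSMC KO and 0, 0 and 0 in MC38-DKO (limma adjusted p = 0.0279). It was at least 1.15-fold lower in MC38-DKO than in MC38-CMAS KO, counting 3 reads as the limit of detection.

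**Figure D2:**
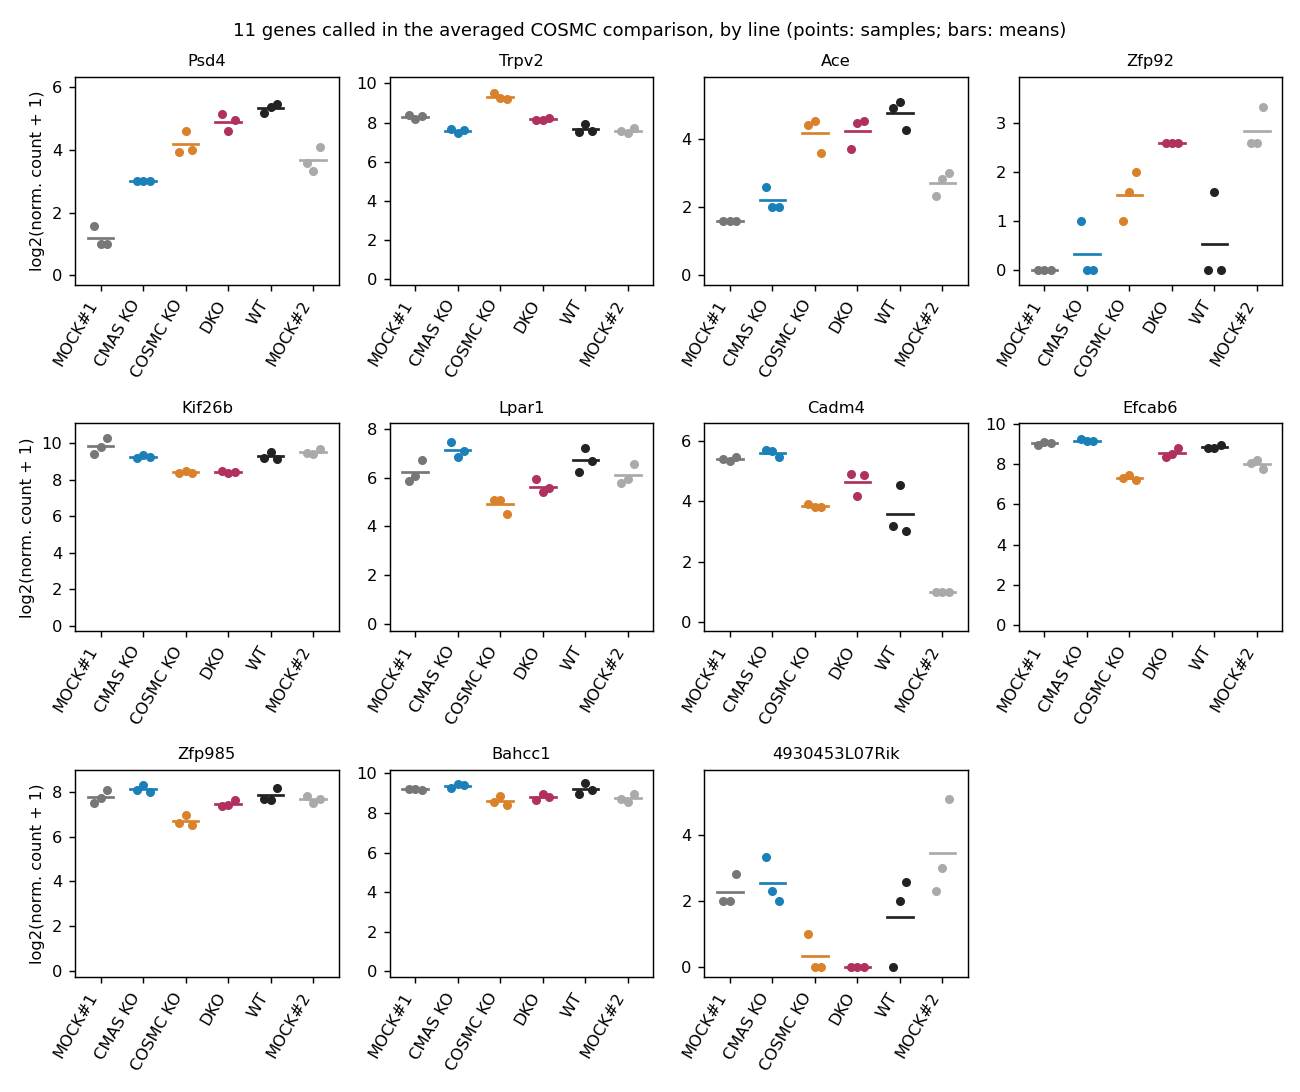
Log2 of the normalized count plus 1 for 11 of the 12 genes that passed in the averaged comparison, by line. Points are samples, bars are means of 3, and vertical scales differ between panels; MC38-WT and MC38-MOCK#2 did not enter the fit. In the upper row (Psd4, Trpv2, Ace, Zfp92) the COSMC-targeted lines were higher within each background, in the other rows lower.

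The 12 calls depended on single libraries. Leaving out each of the 12 samples in turn gave 2 to 14 genes, with 2 left without MC38-MOCK#1 replicate 3. Psd4 and Kif26b passed in all 12 of these fits, Trpv2 and Ace in 11, Lpar1 in 6, Bahcc1 in 3, Efcab6 and 4930453L07Rik in 2, Zfp985 and Zfp92 in 1 and Cadm4 in 0.

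The fold changes of the 2 backgrounds share no sample, but their tests share the residual spread of 1 fit of all 4 lines. Without CMAS targeting, 2964 genes (13.9%) passed, 1504 higher (7.03%) and 1460 lower (6.82%) in MC38-COSMC KO than in MC38-MOCK#1. With CMAS targeting, 2467 genes (11.5%) passed, 1182 higher (5.52%) and 1285 lower (6.01%) in MC38-DKO than in MC38-CMAS KO. Genes that passed in both numbered 21 with the same direction (0.0981%) and 1308 with opposite directions (6.11%). The 21 genes made up 0.709% of the calls without and 0.851% of those with CMAS targeting, and the 1308 genes 44.1% and 53.0%.

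For 4736 genes (22.1%) the effect of COSMC targeting differed between the backgrounds, 2372 of them with a more positive value in MC38-DKO against MC38-CMAS KO. With all samples scaled to the same total this split was 2809 to 2068, and that of the calls without CMAS targeting 1200 higher to 1988 lower. Over the 13531 genes with a mean of at least 10, the log2 fold changes of both contrasts correlated with r = -0.638 (Pearson) and rho = -0.552 (Spearman), across genes that share the same 12 libraries and are not independent replicates. Only 3921 of them (29.0%) had the same sign. The median absolute log2 fold change was 0.21 without and 0.19 with CMAS targeting, and 0.09 in the average.

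**Figure D3:**
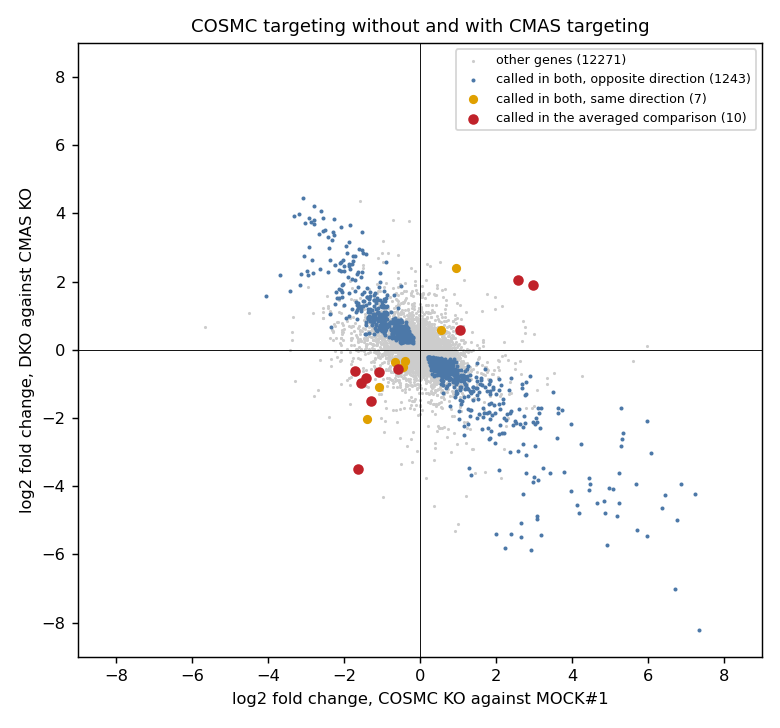
Each point is a gene with a mean of at least 10 normalized counts (13531 genes); the horizontal axis is its log2 fold change without and the vertical axis with CMAS targeting. Blue points, called in both with opposite signs, fill the upper left and lower right, whereas the genes called in the same direction (yellow) or in the averaged comparison (red) are few.

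All 12 genes of the averaged comparison were among the 21 called in the same direction, 6 higher (0.028%) and 15 lower (0.0701%). The other 9 passed in each background but not in the additive model, with limma adjusted p between 0.0603 and 0.289 (named here with their values known). As the mean of both contrasts with 4 line means they had limma adjusted p between 0.00121 and 0.0306, except Pcdhgb2 with 0.0503. These values come from the fit in which the 9 genes were selected, so they are no further test. Txnip, an inhibitor of thioredoxin and of glucose uptake, had 443 to 558 normalized counts in the 6 untargeted and 297 to 408 in the 6 targeted samples, which did not overlap. Its log2 fold change was -0.67 without and -0.36 with CMAS targeting. MC38-WT had 231 to 304 and MC38-MOCK#2 196 to 264, nearer to the targeted than to the untargeted samples.

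Fzd7, a receptor for Wnt ligands, had 510 to 636 normalized counts in the untargeted and 381 to 469 in the targeted samples, with log2 fold changes of -0.40 and -0.34. MC38-WT (464, 456 and 448) and MC38-MOCK#2 (383, 433 and 427) lay within the targeted range. Mid2, a ubiquitin ligase of the tripartite motif family, fell by 0.46 and by 0.50. It had 258, 369 and 259 normalized counts in MC38-WT and 134, 129 and 149 in MC38-MOCK#2, the latter below all targeted samples. Tmcc3, a protein of the endoplasmic reticulum membrane, rose by 0.55 and 0.58, and Ttbk1, a tau tubulin kinase, by 0.94 and 2.41. Ttbk1 had 35, 38 and 35 normalized counts in MC38-MOCK#1 and 7, 10 and 13 in MC38-CMAS KO, against 52, 86 and 76 in MC38-COSMC KO and 42, 60 and 69 in MC38-DKO, with the groups apart. In MC38-WT Ttbk1 had 37, 34 and 20 and in MC38-MOCK#2 106, 113 and 87, the latter above the targeted samples. The fall of Batf, an AP-1 family factor of lymphocytes, rested on 0 to 15 normalized counts, and that of 2810404M03Rik on 1 to 29. Ky, a muscle protein, fell by 1.40 and 2.02 but overlapped between backgrounds, and Pcdhgb2 (-1.08 in both) shares exons with its neighbours in the protocadherin gamma cluster.

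Regardless of any test, 55 genes (0.257%) had all 6 targeted samples above or all 6 below the untargeted ones, 21 higher (0.0981%) and 34 lower (0.159%). With samples scaled to the same total they were 19 and 59, and with median-of-ratios scaling 32 and 42. How many genes would separate in this way without any effect of COSMC targeting was not tested. Of the 55 genes, 8 passed in the averaged comparison and 14 in both backgrounds. Vcam1, a cell adhesion molecule for leukocytes chosen here after its values were seen, had 756 to 1281 normalized counts in the untargeted lines, 703 to 755 in MC38-COSMC KO and 232 to 271 in MC38-DKO, an averaged log2 fold change of -1.08 (limma adjusted p = 0.135, and 0.000196 with 4 line means). Without CMAS targeting it was -0.44 (limma adjusted p = 0.0573) and with it -1.72 (limma adjusted p = 5.27e-06). In MC38-WT Vcam1 had 979, 935 and 962 normalized counts and in MC38-MOCK#2 462, 400 and 547. Cd14, a co-receptor for lipopolysaccharide, had 227 to 250 normalized counts in the untargeted and 274 to 376 in the targeted lines. The averaged log2 fold change was 0.40 (limma adjusted p = 0.178, and 0.0167 with 4 line means). MC38-WT had 349, 423 and 472 and MC38-MOCK#2 304, 358 and 327, within or above the targeted range.

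The control lines outside the fit differed in how they lay for the 21 genes. MC38-WT was nearer to the COSMC-targeted lines for 7 of them and MC38-MOCK#2 for 13. MC38-WT and MC38-MOCK#2 both lay nearer to the untargeted lines for 7 genes, both nearer to the targeted lines for 6, and 1 on either side for 8. These lines were harvested at passages 7 to 9 and 6 to 8, so line and passage cannot be told apart in this description.

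The genes called in opposite directions had a median absolute log2 fold change of 0.65 without and 0.58 with CMAS targeting, and of 0.08 in the average. For these genes MC38-DKO was close to MC38-MOCK#1, with a median absolute difference of 0.11, and MC38-COSMC KO close to MC38-CMAS KO, with 0.16. Of the 1308 genes, 664 (3.1% of those tested) were higher without and lower with CMAS targeting, and 644 (3.01%) the reverse. MC38-WT lay nearer to the single knockout lines than to MC38-MOCK#1 and MC38-DKO for 1155 of them (88.3%), and MC38-MOCK#2 for 871 (66.6%). These shares describe genes selected in the 4 lines and carry no test.

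Timp3, an inhibitor of matrix metalloproteinases, had the largest interaction among the genes that met the rule for naming. It had 5, 4 and 4 normalized counts in MC38-MOCK#1 and 5, 3 and 1 in MC38-DKO, but 957, 1113 and 1186 in MC38-CMAS KO and 761, 943 and 877 in MC38-COSMC KO. The log2 fold change of COSMC targeting was 7.34 without and -8.22 with CMAS targeting, so the average was -0.44 (limma adjusted p = 0.996). MC38-WT (519 to 697) and MC38-MOCK#2 (225 to 359) expressed the gene.

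Colec12, a scavenger receptor of the collectin family, and Sorcs2, a receptor of the VPS10 family, were likewise at or under 3 normalized counts in MC38-MOCK#1 and MC38-DKO. In MC38-COSMC KO Colec12 reached 143 to 184 and Sorcs2 156 to 205. Pet2 was at 0 in all samples of MC38-DKO, at least 27.3-fold lower than in MC38-CMAS KO, and Six3os1, an antisense transcript next to Six3, was at 0 in MC38-MOCK#1 and at least 35.2-fold higher in MC38-COSMC KO. Gm47015 had 6 to 33 normalized counts in MC38-MOCK#1 and MC38-DKO and 373 to 1561 in the single knockout lines.

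In the other direction, Syk, a tyrosine kinase best known from immune receptors, had 61, 42 and 35 normalized counts in MC38-MOCK#1 and 42, 44 and 46 in MC38-DKO, against 0 to 10 in the single knockout lines. Dapp1, an adaptor protein that binds phosphoinositides, had 23 to 37 and 16 to 23 against 0 to 4. Mdga2, a synaptic adhesion protein, and Ccdc36, a protein of meiotic recombination, showed the same pattern, with log2 fold changes of -3.10 and -3.32 without and 4.45 and 3.93 with CMAS targeting. Zrsr1, whose reads may be shared with its paralogue Zrsr2, and Gm18336, a predicted gene, completed the group. Gm18336 had 460 to 786 normalized counts in MC38-MOCK#1 and MC38-DKO and 33 to 93 in the single knockout lines. In MC38-WT it had 143, 98 and 102 and in MC38-MOCK#2 492, 514 and 457. The 12 were chosen for opposite effects, which largely cancel in the average and widen the residual spread of the additive model. That none of the 12 passed there (limma adjusted p between 0.959 and 1) followed from this choice. Gm47015 passed as the mean of both contrasts in the fit of 4 line means (limma adjusted p = 0.00298).

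**Figure D4:**
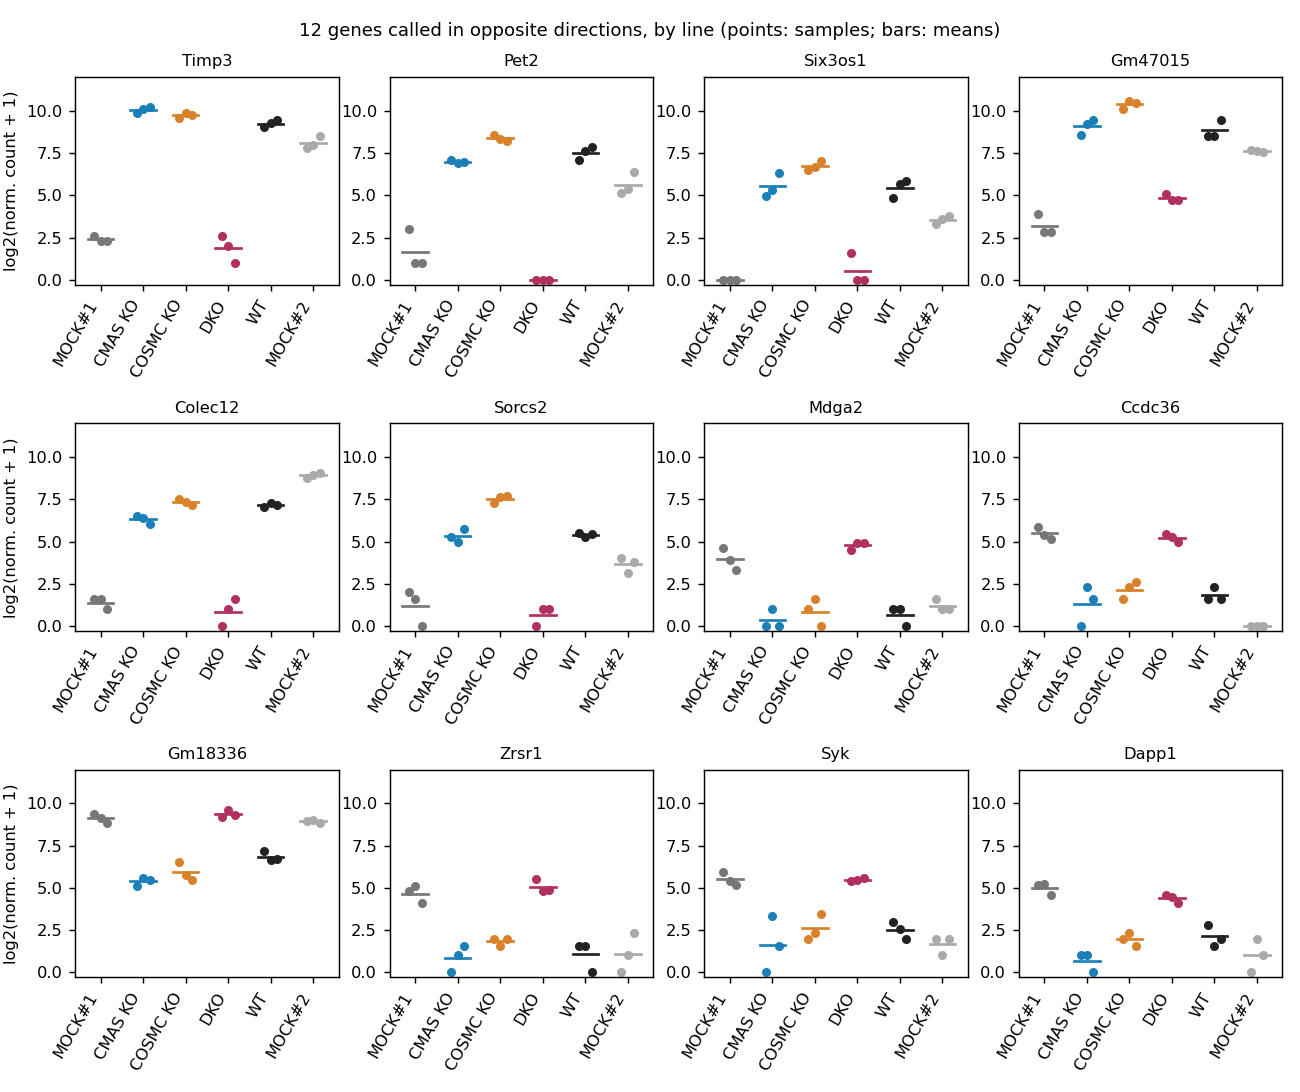
Log2 of the normalized count plus 1 for the 12 genes with the largest interaction in either direction, by line; points are samples and bars are means of 3. In every panel MC38-MOCK#1 and MC38-DKO lie together and apart from MC38-CMAS KO and MC38-COSMC KO, and MC38-WT is closer to the latter.

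Interactions and opposite calls were uneven between chromosomes. Among the 13531 genes with a mean of 10 or more, the share that passed the interaction test was 31.3% over all chromosomes, 54.2% on chromosome 10, 51.8% on chromosome 14 and 46.0% on chromosome 15, and 24.1% on chromosome 7. The share called in opposite directions was 9.19% over all chromosomes and 4.68% on chromosome 1. It was 21.6% on chromosome 14, 19.3% on chromosome 10, 18.5% on chromosome 13 and 16.3% on chromosome 15. On chromosome 10 the median log2 fold change of 649 genes was 0.32 without and -0.21 with CMAS targeting, and 118 of 125 opposite genes were higher without it. The averaged median there was 0.05.

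Pathways that the study examined, and further ones, were described with 20 gene lists, of which 478 genes were tested. The members named from them have the largest interactions of their list or were named after their values were seen. None of these 478 genes passed in the averaged comparison, and 50 (10.5%) had an unadjusted p below 0.05, against 12 called (0.0561%) and 5.84% at that unadjusted p among all tested genes. The medians over all tested genes were 0.00 in each contrast. For comparison with the list counts below, 7.03% of all tested genes were higher and 6.82% lower without CMAS targeting. With CMAS targeting these shares were 5.52% and 6.01%.

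The core O-glycan list holds the enzymes and the donor supply for extending the Tn antigen, and 15 of its genes were tested. Without CMAS targeting 5 were lower and 0 higher, with CMAS targeting 1 was higher and 3 lower, and 6 of the 7 genes with an interaction had a positive one. B3gnt3, which extends core 1 with N-acetylglucosamine, had 452, 403 and 480 normalized counts in MC38-MOCK#1 and 252, 205 and 197 in MC38-COSMC KO, and 309, 285 and 254 in MC38-CMAS KO against 502, 496 and 501 in MC38-DKO. Within either background the samples did not overlap, and the log2 fold changes of -1.03 and 0.82 left an average of -0.10 (limma adjusted p = 0.991). Gcnt1, the core 2 branching enzyme, fell by 0.40 without CMAS targeting (limma adjusted p = 0.0323) and was at 0.11 with it. Gcnt4, a further branching enzyme, fell by 1.26, and Galt, of galactose metabolism, by 0.52. Galk1, the galactokinase, was at 0.09 without CMAS targeting (limma adjusted p = 0.713) and fell by 0.54 with it, with an interaction of -0.63 (limma adjusted p = 0.012).

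None of the 12 tested GALNT genes, whose enzymes start O-glycans, passed in any of these tests, and 2 had an unadjusted p below 0.05 in the average. Among 17 genes of sialic acid synthesis and transfer, St3gal6 fell by 1.54 without CMAS targeting, with 217 to 257 normalized counts in MC38-MOCK#1 and 78 to 83 in MC38-COSMC KO. With CMAS targeting it had a value of 0.54 (limma adjusted p = 0.058). St3gal5, the GM3 synthase, had log2 fold changes of -0.49 and 0.37, and St3gal4 of 0.33 and -0.34, all of which passed.

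The MHC class I list, which covers the class I chains, peptide transport, trimming and the immunoproteasome, had 20 tested genes. Of these, 13 fell and 0 rose without CMAS targeting, and 8 rose and 0 fell with it. The median log2 fold change went from -0.63 to 0.37 and was -0.14 in the average. For 19 of the 20 genes the value was negative without and positive with CMAS targeting, as for 31.8% of all genes tested. B2m, the light chain of MHC class I, had 2120, 2206 and 2809 normalized counts in MC38-MOCK#1 against 1710, 1601 and 1434 in MC38-COSMC KO. In MC38-CMAS KO it had 1897, 1681 and 1462 against 2578, 2521 and 2083 in MC38-DKO. Its average was -0.03 (standard error 0.175, limma adjusted p = 0.996). H2-K1 (0.00) and H2-D1 (-0.08), whose sequences are alike enough to share reads, and Tapbpl (0.00) averaged out in the same way. Nlrc5, the transactivator of these genes, fell by 1.38 and rose by 0.89. The counts of this list rested on single libraries: without MC38-COSMC KO replicate 3, MC38-COSMC KO replicate 2 or MC38-MOCK#1 replicate 3 the 13 genes became 7, 8 and 8, and without MC38-CMAS KO replicate 3 or MC38-DKO replicate 2 the 8 genes became 3.

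Of 46 interferon-stimulated genes tested, 20 fell and 0 rose without CMAS targeting, and 2 rose and 0 fell with it. The medians were -1.20, 0.26 and, in the average, -0.41. Oas3, a sensor of double-stranded RNA, had 182, 159 and 483 normalized counts in MC38-MOCK#1 and 73, 36 and 32 in MC38-COSMC KO, against 61, 43 and 34 in MC38-CMAS KO and 223, 92 and 58 in MC38-DKO. Oas1a and Oas1g, near-identical neighbours that may share reads, had interactions of 3.60 and 3.73. MC38-MOCK#1 replicate 3 was high for several of these genes, such as Isg15 with 74, 122 and 521 normalized counts, and with this library left out 8 of the 46 passed without CMAS targeting. The count was also 8 without MC38-COSMC KO replicate 3 and 9 without MC38-COSMC KO replicate 2, and with CMAS targeting it was 0 without MC38-DKO replicate 2 and 4 without MC38-MOCK#1 replicate 3. Isg15 and Ifit1, with averages of -1.01 and -1.13, passed in neither background. 
Many promoters of interferon-stimulated genes hold a pair of GAAA repeats, the core of the element bound by interferon-activated factors. The upstream windows of 3 genes of these lists that hold it are shown, 5′ to 3′ on the strand of the gene, with each match, GAAA followed by any 2 bases and a second GAAA, in capitals (RefSeq, GRCm38.p6, 250 bases before the transcription start).
B2m, chr2:122147437-122147686, plus strand: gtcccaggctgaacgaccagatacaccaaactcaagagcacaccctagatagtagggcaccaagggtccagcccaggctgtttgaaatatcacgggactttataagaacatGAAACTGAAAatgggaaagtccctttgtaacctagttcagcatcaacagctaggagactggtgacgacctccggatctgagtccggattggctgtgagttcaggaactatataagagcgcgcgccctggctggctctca
Bst2, chr8:71537473-71537722, minus strand: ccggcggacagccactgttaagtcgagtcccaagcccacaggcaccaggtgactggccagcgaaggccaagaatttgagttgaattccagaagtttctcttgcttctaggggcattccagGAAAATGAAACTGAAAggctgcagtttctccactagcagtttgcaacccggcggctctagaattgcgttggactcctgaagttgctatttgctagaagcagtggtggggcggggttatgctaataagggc
Oas3, chr5:120777660-120777909, minus strand: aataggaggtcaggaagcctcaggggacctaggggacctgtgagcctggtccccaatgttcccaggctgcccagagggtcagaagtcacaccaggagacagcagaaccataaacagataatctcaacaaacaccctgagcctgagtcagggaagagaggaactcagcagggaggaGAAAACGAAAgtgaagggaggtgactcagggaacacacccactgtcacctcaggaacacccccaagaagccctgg
The motif was searched on both strands in windows of 300 bases that reach 50 bases past the start. It occurred in 1131 of 32851 windows (3.44%), in 22 of the 34 interferon-stimulated genes with a window and in 5 of the 17 genes of the MHC class I list with one. In Bst2, an antiviral membrane protein, 2 matches overlap. Bst2 fell by 0.67 without CMAS targeting (limma adjusted p = 0.00923), had a value of 0.45 with it (limma adjusted p = 0.0757) and averaged -0.11. A match describes the letters only.

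The MAPK feedback and immediate early genes moved the other way. Of 32 tested, 8 rose and 0 fell without CMAS targeting, and 0 rose and 6 fell with it, with medians of 0.42 and -0.31 and an average of 0.05. Phlda1, an early response gene, had 253, 168 and 318 normalized counts in MC38-MOCK#1 and 804, 833 and 567 in MC38-COSMC KO, against 627, 561 and 536 in MC38-CMAS KO and 314, 319 and 286 in MC38-DKO. The samples did not overlap in either background. Myc, a growth-promoting transcription factor, rose by 0.93 and fell by 0.78. Jun rose by 1.60 without CMAS targeting and was at -0.69 with it (limma adjusted p = 0.258). Egr1 and Egr2 varied by several fold within lines and passed in neither background.

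Collagens moved in both directions. Among 24 tested, 6 rose and 4 fell without CMAS targeting and 2 rose and 9 fell with it, with medians of 0.49 and -0.63 and an average of -0.05. Col6a3, a chain of collagen VI, had 108, 96 and 110 normalized counts in MC38-MOCK#1 and 3829, 4292 and 3765 in MC38-COSMC KO, and 3382, 3522 and 3890 in MC38-CMAS KO against 141, 121 and 228 in MC38-DKO. With changes of 5.23 and -4.50, its average was 0.36 (limma adjusted p = 0.993). Col6a1 and Col6a2, further chains of collagen VI, had interactions of -7.37 and -6.39 and averages of 0.11 and -0.43.

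Blood vessel growth factors and their receptors, of which 30 were tested, rose in 8 and fell in 2 cases without CMAS targeting and rose in 2 and fell in 8 with it. Nrp1, a co-receptor for VEGF and semaphorins, rose by 0.59 and fell by 0.79. Angptl2 rose by 1.96 and fell by 1.85, and Pdgfc fell by 2.29 with CMAS targeting.

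Of 22 epithelial and mesenchymal genes tested, 4 rose and 5 fell without and 2 rose and 7 fell with CMAS targeting. Prrx1 and Zeb1, transcription factors of mesenchymal cells, rose without CMAS targeting and fell with it, with log2 fold changes of 2.59 and -1.75 for Prrx1 and of 1.33 and -1.26 for Zeb1. Snai1 passed in the same directions, whereas Snai2 fell by 1.57 and Twist2 fell by 0.59 without CMAS targeting and had -0.02 and 0.15 with it (limma adjusted p = 0.988 and 0.482). Cdh2, or N-cadherin, went the other way. It had 433, 425 and 393 normalized counts in MC38-MOCK#1 and 296, 292 and 289 in MC38-COSMC KO, and 124, 128 and 130 in MC38-CMAS KO against 449, 474 and 483 in MC38-DKO, so the unequal changes of -0.51 and 1.87 gave an average of 0.68 that did not pass (limma adjusted p = 0.86, and 9.53e-05 with 4 line means). Krt20 was seen almost solely in MC38-CMAS KO, at 44, 41 and 30.

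Integrins, with 17 genes tested, had 3 higher and 5 lower without CMAS targeting and 2 higher and 3 lower with it. Itgb8 reached 38 to 90 normalized counts in the single knockout lines and 0 to 2 in MC38-MOCK#1 and MC38-DKO. Itga3, a laminin receptor subunit, fell by 0.89 and rose by 1.59. Among 7 galectins, Lgals3, a galactoside-binding lectin, had 2138 to 2472 normalized counts in MC38-MOCK#1 and 9563 to 10744 in MC38-COSMC KO, and 5348 to 6333 in MC38-CMAS KO against 2518 to 3062 in MC38-DKO. It rose by 2.11 and fell by 1.04, and the average of 0.54 passed with 4 line means (limma adjusted p = 0.00101) but not in the additive model (limma adjusted p = 0.931).

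For the 22 mucins and other O-glycosylated surface proteins, substrates of the pathway that COSMC serves, 6 rose and 5 fell without and 1 rose and 7 fell with CMAS targeting. Pdpn, or podoplanin, had 53 to 76 normalized counts in MC38-MOCK#1 and 8 to 14 in MC38-COSMC KO, against 2 to 8 in MC38-CMAS KO and 43 to 107 in MC38-DKO. Vldlr, a lipoprotein receptor, rose by 1.14 and fell by 0.87.

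Secreted signals followed both patterns. Of 32 genes of TGF-beta and BMP signalling, 5 rose and 5 fell without and 3 rose and 7 fell with CMAS targeting. Grem1, a BMP antagonist, had 13 to 19 normalized counts in MC38-MOCK#1, 544 to 761 in MC38-COSMC KO, 441 to 588 in MC38-CMAS KO and 59 to 95 in MC38-DKO, with an average of 1.34 (limma adjusted p = 0.931, and 0.000463 with 4 line means). Bmp5 was seen almost solely in MC38-COSMC KO, at 41, 29 and 19, and had an average of 2.47 that did not pass (limma adjusted p = 0.544, and 0.00633 with 4 line means). Among 25 chemokines, cytokines and colony-stimulating factors, Ccl7, a chemokine for monocytes, rose by 3.48 and fell by 1.25, Ccl2 rose by 1.55 without CMAS targeting and Cx3cl1 fell by 1.32 and rose by 1.12. Of 16 checkpoint and co-stimulatory ligands, 3 fell and 0 rose without and 2 rose and 0 fell with CMAS targeting, among them Lgals9 with -2.26 and 1.35.

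Medians of the ER chaperones (30 tested), cell cycle genes (38), cholesterol synthesis genes (24), glycolysis and hypoxia response genes (32) and sphingolipid and N-glycan branching enzymes (22) lay between -0.15 and 0.12 without, between -0.20 and 0.04 with CMAS targeting and between -0.10 and 0.02 in the average. Without CMAS targeting the genes that rose and fell numbered 4 and 2, 4 and 4, 7 and 1, 4 and 7, and 5 and 4 in this order. With it they numbered 0 and 6, 1 and 8, 0 and 3, 3 and 4, and 1 and 4. Cdk4, a cell cycle kinase, rose by 0.78 and fell by 0.28, and Sqle, of cholesterol synthesis, rose by 0.50 and fell by 0.37. In the glycolysis and hypoxia list 7 interactions were positive and 4 negative. Ddit4, an inhibitor of mTORC1, rose by 1.17 and fell by 0.61, whereas Bnip3l fell by 0.75 and rose by 0.49. Egln3 fell by 1.18 and had a value of 0.87 with CMAS targeting (limma adjusted p = 0.126). Hsp90b1, the ER chaperone GRP94, rose by 0.52 and fell by 0.49.

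**Figure D5:**
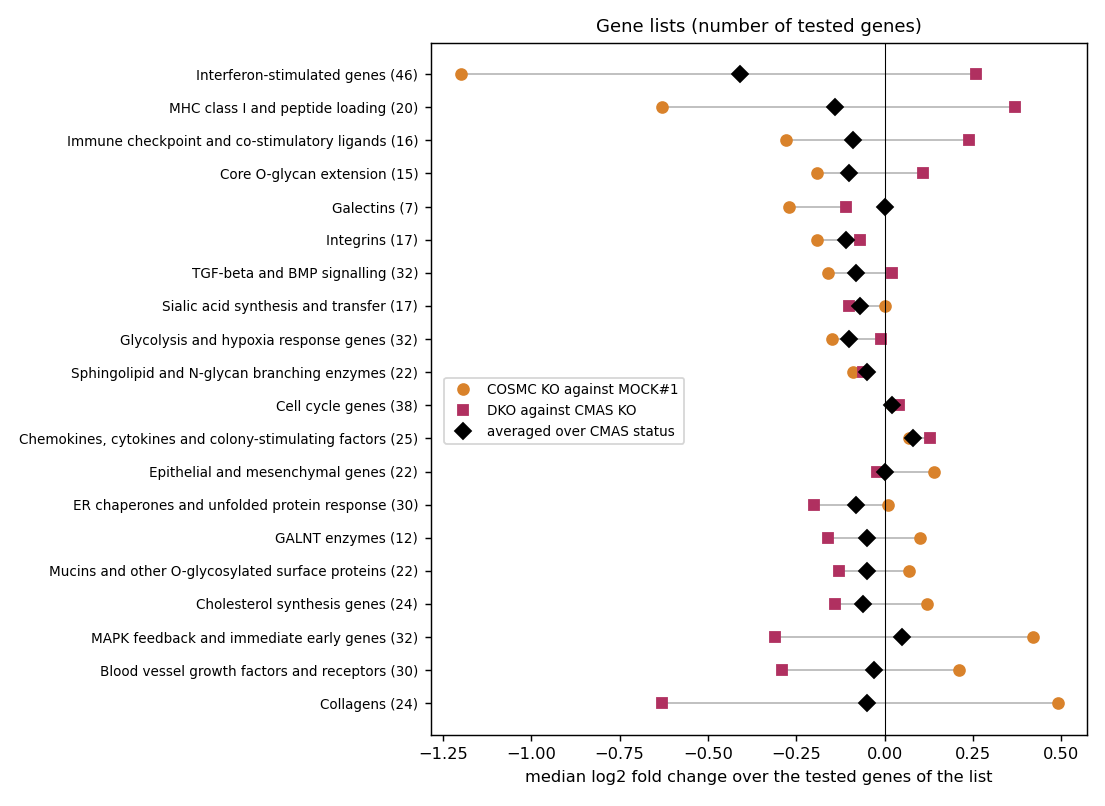
Median log2 fold change over the tested genes of each of 20 lists (horizontal axis), without CMAS targeting (circles), with it (squares) and averaged (diamonds); the number of genes is in brackets. Interferon-stimulated and MHC class I genes lie left of 0 without and right of 0 with CMAS targeting, collagens and MAPK feedback genes the reverse, and the averages lie between -0.41 and 0.08.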

How the data were processed

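RNA of 24 samples from 8 MC38 lines was sequenced by the study as single 50 base reads from a stranded mRNA kit. Per the submitters' processing notes and the study's methods, the authors used HISAT2 2.0.4, SAMtools 0.1.19, featureCounts of Subread 1.5.0-p3 and edgeR 3.18.1 on GRCm38. The strand setting of counting is not given in the sources used here. The deposited values, treated as a score, are counts that the authors scaled per library and rounded to whole numbers, 0.805 to 1.55 per read in the 12 libraries, so no count model was fitted to them.

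Values were taken as log2(value + 1), and fold changes are on this scale, which understates changes of low genes. Genes with at most 8 zeros in 12 samples were fitted with limma 3.58.1 (R 4.3.3; Python 3.11.15 for tables) with a trend, as an additive model of CMAS and COSMC targeting (9 residual degrees of freedom) and as 4 line means (8 degrees of freedom) for the contrasts within each background and their difference. P-values were adjusted by Benjamini-Hochberg over 21396 genes with a threshold of 0.05. The scripts were tested on simulated data. Members and lists were chosen with earlier results of these data known.

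Named genes were C1galt1c1, C1galt1 and Cmas, up to 12 called genes per direction with a mean of at least 20 in the 6 samples of the higher side and no overlap within either background, the 6 genes of either sign with the largest interaction called in opposite directions with a mean of at least 20 in the highest line and no such overlap, and list members. Ace, Zfp92, 4930453L07Rik, the 9 further genes called in the same direction, Vcam1, Cd14 and list members without a call were named after their values were seen. Pseudocount, scaling, filter, trend, replicate block, all 8 lines and each library left out were tried as alternatives. Depth is approximate, and precision was judged from the spread of samples. The values of 1 gene that passed in the averaged comparison and of 1 list member are not reported here.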

Additional observations from a re-analysis of the deposited data

Results flagged for a closer look

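The effect of COSMC targeting differed between the 2 CMAS backgrounds by limma's interaction test for 4736 genes. Values below are interactions on the log2 scale, the change with CMAS targeting minus that without, each with an adjusted p below 0.05. Among the target genes C1galt1c1 had 0.73. Of the genes called in the same direction, Trpv2 had -0.46, Efcab6 1.11 and Ttbk1 1.47, so that both effects had the same sign but not the same size. Vcam1 had -1.29.

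Among genes called in opposite directions the negative values were -15.55 for Timp3, -13.71 for Pet2, -11.74 for Six3os1, -11.47 for Gm47015, -11.41 for Colec12 and -11.01 for Sorcs2. The positive ones were 7.54 for Mdga2, 7.25 for Ccdc36, 7.19 for Gm18336, 7.00 for Zrsr1, 6.78 for Syk and 6.74 for Dapp1. Fitted values of genes at 0 in a line depend on the pseudocount.

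In the glycosylation lists, B3gnt3 had 1.86, Gcnt4 1.56, Galt 0.84, Gcnt1 0.52, Galk1 -0.63, St3gal6 2.08, St3gal5 0.86, St3gal4 -0.67, Fut11 -2.52, Mgat4a 2.09 and Fut8 0.88. Of surface proteins and lectins, Pdpn had 6.44, Lrp1 -2.02, Vldlr -2.01, Lgals9 3.61, Lgals3 -3.15 and Lgals3bp 2.18.

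Among immune genes, positive values were those of B2m 1.09, H2-K1 0.80, H2-D1 0.80, Nlrc5 2.27, Psmb9 2.14, Tapbpl 1.78, Oas1g 3.73, Oas3 3.66, Oas1a 3.60, Bst2 1.12, Raet1e 1.22, Ulbp1 0.97 and Cx3cl1 2.44, and negative ones those of Ccl7 with -4.73 and Ccl2 with -1.80. In the list of chemokines and cytokines, 6 genes had a negative and 3 a positive interaction. The early response genes named had negative values, with Egr2 at -4.49, Egr1 at -2.80, Phlda1 at -2.50, Jun at -2.29 and Myc at -1.70.

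For matrix, adhesion and mesenchymal genes the values were -9.73 for Col6a3, -7.37 for Col6a1, -6.39 for Col6a2, -4.34 for Prrx1, -2.60 for Zeb1, -4.29 for Krt20, 2.38 for Cdh2, -10.63 for Itgb8, -3.29 for Itgb2 and 2.48 for Itga3. For vessel and TGF-beta family genes they were -3.82 for Angptl2, -2.81 for Pdgfc, -1.38 for Nrp1, -7.92 for Grem1, -4.73 for Inhba, -4.15 for Bmp5 and -1.38 for Cdkn2b. In the remaining lists Ddit3 had -1.77, Hsp90b1 -1.01, Trib3 -0.72, Cdk4 -1.06, Cdkn2c -0.96, Sqle -0.86, Lss -0.81, Srebf2 -0.77, Egln3 2.05, Ddit4 -1.78 and Bnip3l 1.24.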

How the results depend on the processing

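The averaged count was 12 genes in the additive model. As the mean of both contrasts it was 153 when 4 line means were fitted and 194 when 8 were. The 194 genes therefore compare with the 153 and not with the 12. In the additive model with a replicate block, which fits the replicate number shared by the lines, the count was 5. The block gave 3065 calls without and 2547 with CMAS targeting, 4851 interactions, and 24 genes of the same and 1390 of opposite direction. Same-numbered samples were not taken as pairs, since the correlation of their deviations from line means ran from -0.227 to 0.205, with every sample matching best with its own number between MC38-CMAS KO and both COSMC-targeted lines but not between the other lines. Without a trend in the variance, 1610 genes passed with CMAS targeting and 832 in opposite directions. Leaving out each library in turn gave 2 to 14 averaged calls, 1889 to 3214 calls without and 1540 to 2684 with CMAS targeting, 3913 to 4668 interactions, and 14 to 24 genes of the same and 899 to 1421 of opposite direction. The averaged count was 2 without MC38-MOCK#1 replicate 3, 4 without MC38-CMAS KO replicate 1 or 3 or MC38-COSMC KO replicate 3, 5 without MC38-MOCK#1 replicate 2 or any MC38-DKO library, and 7 without replicate 2 of MC38-CMAS KO or MC38-COSMC KO. The averaged value of Cmas turned to -0.002 with equal totals and ranged from -0.058 to 0.069 with a library left out (-0.023 and -0.007 in others), and that of C1galt1 to -0.022 with equal totals and from -0.036 to 0.039, with -0.005, -0.016, -0.023 and -0.007 among them. Of 2004 single gene values under alternatives, 1824 kept their direction and side of the threshold. A further 165 were labelled weaker and 5 stronger, and 10 turned direction. Counts within the gene lists were labelled as the same in 1132 cases and as moved in 128, with 1.5-fold as the limit. The cause of these shifts was not tested. Depth limits genes near 3 reads, such as Zfp92 and 4930453L07Rik.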

Other observations

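Itga7 and the RNA processing and transcription factors Cpsf3 and Gtf2b, chosen after their values were seen, had all 6 COSMC-targeted samples apart from the 6 others and passed as the mean of both contrasts with 4 line means (limma adjusted p of 0.00908, 0.0226 and 0.04 in the order Itga7, Cpsf3 and Gtf2b), but not in the additive model. Itga7, a laminin receptor subunit, had 94 to 177 normalized counts in the untargeted and 48 to 91 in the targeted samples, with an averaged log2 fold change of -0.89 (limma adjusted p = 0.143). MC38-WT (34, 52 and 25) and MC38-MOCK#2 (7, 14 and 13) lay within or below the targeted range of Itga7. Cpsf3, which cleaves pre-mRNA before polyadenylation, had 1032 to 1143 against 1206 to 1328 (0.23, limma adjusted p = 0.289), and Gtf2b, a general transcription factor, 569 to 640 against 657 to 783 (0.26, limma adjusted p = 0.354). Cpsf3 had 1314, 1244 and 1284 in MC38-WT, within the targeted range, and 958, 971 and 989 in MC38-MOCK#2. Gtf2b had 589, 563 and 614 in MC38-WT and 601, 672 and 607 in MC38-MOCK#2, of which 672 was within the targeted range.

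The chromosomes differed in direction as well as in share. Of the genes called in opposite directions with a mean of at least 10, 69 of 79 on chromosome 15 were higher without CMAS targeting, against 17 of 101 on chromosome 13 and 9 of 47 on chromosome 18. On chromosome 14 they were 50 of 95.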
